A study of Mus musculus with 40 samples.

Results

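Bacterial flagella and the chemotaxis proteins that steer them were followed through the cecal RNA of mice fed different amounts of broccoli powder. The members are the genome features whose symbol, after a trailing copy number is removed, begins with fli, flg, flh, che or mot, or is hag, mcpA, mcpB, mcpC or mcp4. The rule was applied to 5 bacterial count tables and matched 62 of 16742 features, of 18455 features in all 6 tables of the series. Of the 62, 36 belonged to L.bacterium335, 25 to Acetatifactor and 1 to F. rodentium, while D. muris and X. muris had 0. The Alistipes table lies outside the rule and had 0 features with these symbols. Between 18.4% (X. muris) and 49.2% (Alistipes) of a table's features carried a gene symbol, so the lack of a symbol does not show the lack of a gene. The rule used names and no measured values.

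C57BL/6 mice entered the study at 3 weeks of age and ate the Total Western Diet, a rodent diet built to resemble American nutrient intake, for 6 weeks. For a further 3 weeks the diet either had no broccoli powder or held it at 0.5%, at 1% or at 2.5%, and total RNA of the cecal contents was sequenced after depletion of ribosomal RNA. There were 10 libraries at each of the 4 levels, called 0%, 0.5%, 1% and 2.5% here, and every animal, also at 0%, had eaten the Western diet throughout. The labels do not say whether each library came from a separate mouse, so the p-values measure the spread between libraries.

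The flagellum is a rotating helical filament driven by a motor in the cell envelope. It is built outward from an export gate, a rod and a hook, and its filament is a polymer of flagellin with a cap protein at the tip. In chemotaxis, membrane receptors control the kinase CheA, which passes phosphate to CheY, and phosphorylated CheY changes how the motor turns. In the gut, motile members of the Lachnospiraceae and related families carry such genes, and flagellin is recognised by the host receptor TLR5.

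The libraries held 236483 to 5107249 counts over the 6 tables. In L.bacterium335 at 0%, a median of 76.8% of a library's counts fell on 5 features, against 18.1% at 2.5%, and 65.2% of the 1384 features tested had 0 counts in all 10 libraries of 0%. Against that background 2 libraries stood apart from their group. The library 2.5% replicate 9 had 4 member counts in L.bacterium335, with 79.1% of that bacterium's counts on 5 features, yet 704 in Acetatifactor. The library 2.5% replicate 8 had 17580 member counts in L.bacterium335 and only 18 in Acetatifactor. Both are kept in every value below unless stated. The calls of members against 0% named below held when either was left out, except that of fliM in Acetatifactor without replicate 9. For genes outside the rule, calls without these libraries were not examined.

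In L.bacterium335, flagella and chemotaxis transcripts were nearly absent at 0% and present in the libraries of the broccoli diets except 2.5% replicate 9. That library had 4 member counts, within the range of 0%. The 10 libraries of 0% held 0, 0, 1, 3, 1, 0, 0, 7, 3 and 0 member counts in replicate order, 15 of 757208 counts on that genome. At 0.5% the libraries held 134 to 5052 member counts (median 922.5), at 1% 96 to 13066 (median 2694.5), and at 2.5% 6971 to 24395 apart from replicate 9. As a share of the counts on the genome, members took at most 0.0373% at 0%, 0.330 to 2.29% at 0.5%, 0.190 to 2.55% at 1%, and 2.05 to 3.00% in 9 libraries of 2.5% with 0.00393% in replicate 9. No library of 0.5% or 1% overlapped with 0%. The same held for the number of features detected on the whole genome. It was 559 to 720 at 0%, 1339 to 3101 at 0.5% and 1328 to 3617 at 1%. In bulk RNA of this kind, fewer cells of a bacterium and less RNA per cell cannot be told apart.

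**Figure D1:**
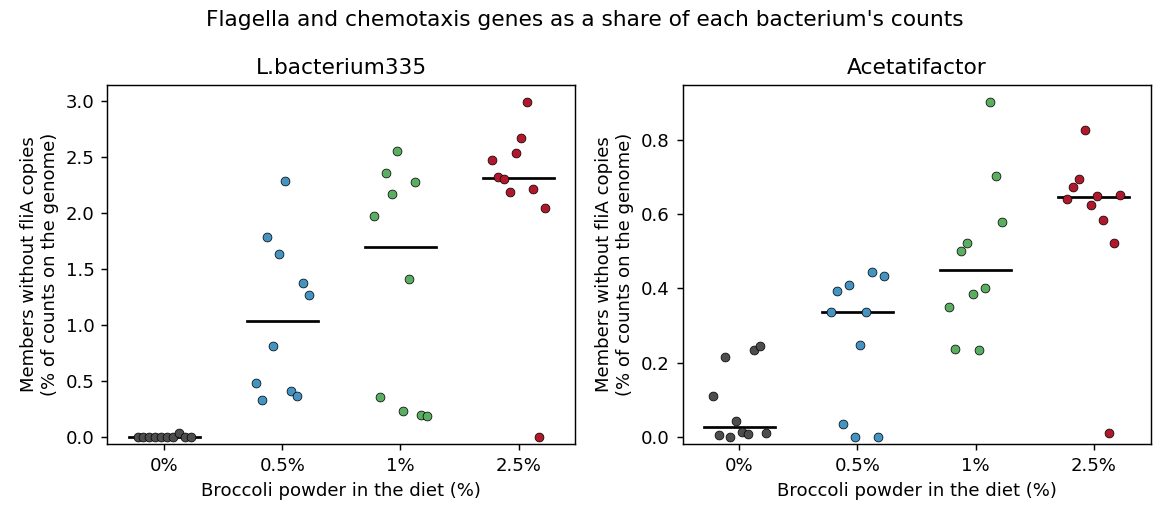
Counts on flagella and chemotaxis genes (fliA copies left out) as a percent of all counts on the genome, by broccoli level, for L.bacterium335 (left) and Acetatifactor (right). Each point is 1 library and each bar is the group median. The 0% libraries of L.bacterium335 lie at or near 0, those of 2.5% between 2.05 and 3.00% except replicate 9, and in Acetatifactor only replicate 8 of the 2.5% libraries lies near 0.

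Of the 36 members in L.bacterium335, 29 had enough counts to be tested, and all 29 rose against 0% at 0.5%, at 1% and at 2.5% (edgeR quasi-likelihood test, Benjamini-Hochberg adjusted over all 1384 features). Most of this genome did the same: 80.1%, 79.9% and 92.8% of all tested features were called in those comparisons, and 79.4%, 78.4% and 77.8% were called higher. Such a filter passes a gene through the groups where it is high, so a count of 29 among tested members says little about the members themselves. The 3 comparisons share the 0% libraries. The fitted median log2 fold change of the members was 8.90, 8.53 and 8.86, against 7.60, 7.68 and 7.94 over all tested features. Fitted values depend on the prior count where 0% is empty. With the features at 0 counts set to a floor of 3 counts over the 0% group, the median fold at 2.5% was 89.2 over the 29 tested members and 39.8 over the 1384 features.

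**Figure D2:**
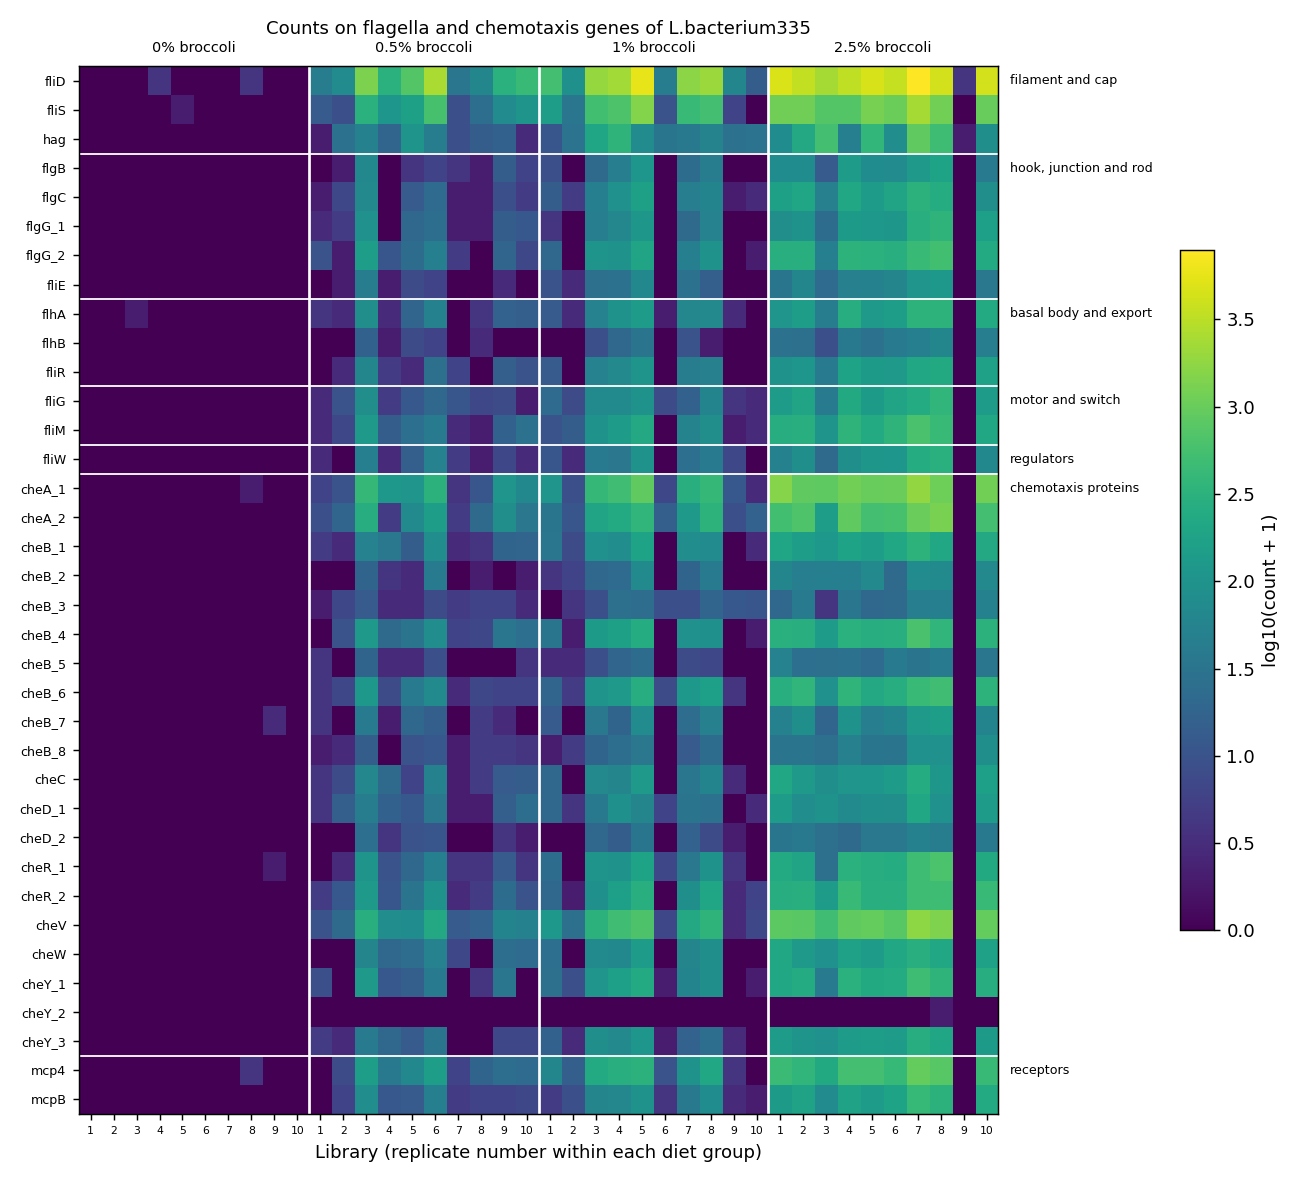
Counts of the 36 members in L.bacterium335 (rows, by role) in each of the 40 libraries (columns, by broccoli level and replicate), as log10(count + 1). The 0% columns are almost empty, 2.5% replicate 9 resembles them, and several 0.5% and 1% columns are sparse.

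Of the 36 members, 29 had 0 counts in every library of 0%, 6 had 1 to 3 counts and 1, fliD, had 6. The 6 were cheA_1, flhA, fliS, mcp4, cheB_7 and cheR_1, the last 2 named after their values were seen. Where 0% was empty, the fold is given as a lower bound against the floor of 3 counts over the group, after scaling within the genome. These bounds at 2.5% ran from at least 10.5-fold for cheB_3 to at least 330-fold for cheV. With the same floor, the median fold over all 1384 tested features was 39.8. When libraries were instead scaled to their total over the 6 tables, which also counts the larger share of this bacterium at 2.5%, the same bounds ran from at least 73.9-fold to at least 2318-fold. On that scale the median over all tested features was 280-fold.

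Among the filament genes, fliD encodes the cap under which flagellin assembles, fliS the chaperone that holds flagellin for export, and hag flagellin itself. The cap gene fliD had 0 to 3 counts per library at 0%, 33 to 2562 (median 311) at 0.5%, 13 to 5723 at 1%, and 2381 to 7940 at 2.5% apart from 3 in replicate 9. Its log2 fold change was 9.33 ± 0.89 (SE) at 0.5%, 9.21 ± 0.89 at 1% and 9.20 ± 0.89 at 2.5%, with an edgeR adjusted p of 2.98e-15 at 2.5%. These 3 values lie within 1 standard error of each other. A single count of fliS was found at 0%, against 1404, 3852 and 10535 counts in the 0.5%, 1% and 2.5% groups. The ratio of fliS at 2.5% to 0% was 1183, with a 95% exact counting interval of 212 to 46735 that covers counting error only. The gene hag had 0 counts in the 10 libraries of 0%, and 1, 28, 50, 18, 102, 42, 8, 13, 15 and 2 at 0.5%. At 1% the libraries held 10, 30, 192, 343, 76, 32, 37, 55, 29 and 30 hag counts. At 2.5% they held 77, 222, 547, 47, 383, 82, 883, 487, 1 and 87, at least 105-fold above 0%. At 1%, hag was found in the 4 libraries where most other members were near 0, with 30, 32, 29 and 30 counts in replicates 2, 6, 9 and 10.

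The rod genes flgB and flgC, the distal rod genes flgG_1 and flgG_2, and fliE, whose product joins the rod to the ring in the membrane, form the axle of the motor. All 5 were tested and rose at each level, as did 79.4%, 78.4% and 77.8% of all tested features at 0.5%, 1% and 2.5%. The gene flgG_2 had 0 counts at 0%, 0 to 151 (median 9.5) at 0.5%, 0 to 190 (median 34) at 1% and 0 to 523 (median 287) at 2.5%, where only replicate 9 had 0. Its fold at 2.5% was at least 103, that of flgC at least 60.4 and that of flgG_1 at least 50.8. The median over all 1384 tested features was 39.8 with the same floor.

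The export gate genes flhA, flhB and fliR encode the channel through which rod, hook and filament proteins leave the cell. Both tested genes rose at each level, where 79.4%, 78.4% and 77.8% of all tested features were called higher. At 2.5% fliR was at least 48.6-fold higher, and flhA had 1753 counts against 1 at 0%, a ratio of 197 (95% exact counting interval 35.3 to 7780). The gene flhB was below the filter, with 0, 30, 68 and 320 counts in the groups from 0% to 2.5%. The switch genes fliG and fliM, whose products set the turning direction, had 0 counts at 0%. The fliM counts at 2.5% were 269, 279, 105, 342, 239, 340, 602, 437, 0 and 217, at least 106-fold higher, and fliG was at least 63.1-fold higher. The single regulator among the members, fliW, whose product binds both flagellin and the translational repressor CsrA, was at least 40.8-fold higher at 2.5%. That bound is near the median of 39.8 over all 1384 tested features with the same floor.

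Of 20 chemotaxis protein genes, 14 were tested and all 14 rose at each level, with fitted log2 fold changes between 4.76 and 11.26 at 2.5%. Over all 1384 tested features, 79.4%, 78.4% and 77.8% were called higher at 0.5%, 1% and 2.5%. Their fitted median log2 fold change at 2.5% was 7.94. The kinase gene cheA_2 had 0 counts at 0%. Its counts at 0.5% were 8, 18, 267, 4, 70, 146, 4, 21, 85 and 34, and at 2.5% 519, 661, 153, 896, 538, 589, 1037, 1315, 0 and 546. That is at least 234-fold higher at 2.5%, with only replicate 9 at the level of 0%. The other kinase copy, cheA_1, had 1 count at 0% and 10573 at 2.5%, a ratio of 1187 (95% exact counting interval 213 to 46904). The gene cheV, a coupling protein with a receiver domain, had 9 to 280 counts at 0.5%, 2 to 643 at 1% and 499 to 1749 at 2.5% apart from 0 in replicate 9. Its fitted log2 fold change of 11.26 ± 1.10 (edgeR adjusted p = 9.21e-15) is no bound, since 0% had 0 counts.

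The 6 untested chemotaxis genes were copies: cheB_2, cheB_3, cheB_5 and cheB_8 of the receptor methylesterase, cheD_2 of the receptor deamidase, and cheY_2 of the response regulator. Copies of a gene can share reads, so values of numbered copies are uncertain where the counting split them. The copy cheY_2 had 1 count in 40 libraries, while the copies cheY_1 and cheY_3, both tested and named after their values were seen, had 2382 and 1374 counts at 2.5%. The copy cheB_3 was spread differently from most members over the 1% libraries, with 0, 3, 8, 27, 24, 8, 8, 18, 11 and 10 counts, so that replicates 6, 9 and 10, with few counts of most members, had 8, 11 and 10. The receptor genes mcp4 and mcpB both rose at each level, where 79.4%, 78.4% and 77.8% of all tested features were called higher. The mcp4 counts were 3 at 0%, all in replicate 8, and 4730 at 2.5%, a ratio of 177 (95% exact counting interval 60.6 to 859), and mcpB was at least 69.3-fold higher.

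Between the broccoli levels, no member of L.bacterium335 was called with the main scaling within the genome (TMM). The lack of a call does not show equal levels. Of the 29 tested, 0 were called at 1% against 0.5%, at 2.5% against 0.5% and at 2.5% against 1% (edgeR), 0 also at an unadjusted p under 0.05, and 0 by DESeq2. Over all tested features 0.145%, 13.2% and 8.38% were called there. The members' median log2 difference was -0.08, 0.30 and 0.36, against -0.03, 0.14 and 0.19 over all tested features. These values are within the genome. Scaled to the total over the 6 tables, all 29 were higher at 2.5% than at 0.5%, as were 85.5% of all features called in either direction, with a median log2 difference of 3.02 for members and 3.09 for all. With size factors by the median ratio method (RLE), all 29 were also called, with 80.3% of all features. Members of L.bacterium335 had more counts at 2.5% than at 0.5%. The whole genome's share of the counts was also larger, with a median of 11.7% at 0.5% and 50.7% at 2.5%. Within the genome's own counts, members took a median of 1.04% at 0.5% and 2.31% at 2.5%. The part of each in the larger count was not tested.

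Member counts were also divided by those of 23 features named as reference genes (RNA polymerase, gyrase, elongation factors, chaperones, ATP synthase and glycolysis). These genes were not constant against 0%: in L.bacterium335, 18 of the 19 tested rose at each level, with a median log2 fold change of 8.27, 8.16 and 8.75, and in Acetatifactor 12 of 17 rose at 2.5% and 1 fell. The ratio therefore describes members relative to these genes in each library. At 0.5%, replicates 1, 2, 7 and 8 had 361, 286, 179 and 219 member counts per 1000 reference counts, and the other 6 libraries had 970 to 1886. At 1%, replicates 2, 6, 9 and 10 had 256, 118, 210 and 78.6, and the other 6 had 724 to 1404. The 9 libraries of 2.5% with at least 100 reference counts lay between 617 and 1570, with a median of 1012. Among the 20 libraries of 0.5% and 1%, the widest gap between neighbouring values on a log scale lay between 361 and 724. It was located in these same values and is a description only. The low libraries had 28103 to 80391 counts on the genome at 0.5% and 50630 to 80917 at 1%. The others had 71741 to 263797 and 70529 to 511927, and the part of depth in the gap was not tested. At 0% only 1 library reached 100 reference counts, at 3.36 members per 1000, so 0% cannot be described on this scale. The share of the genome's counts on 5 features also varied between these libraries, from 35.9 to 65.8% at 0.5% and from 20.9 to 69.8% at 1%, and its part in the spread was not tested.

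**Figure D3:**
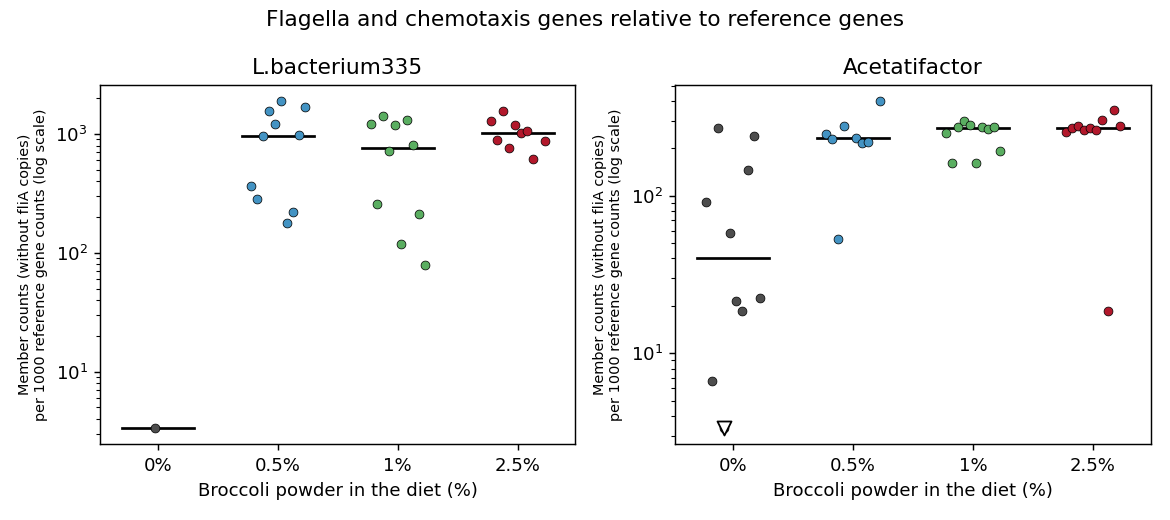
Member counts (fliA copies left out) per 1000 counts of reference genes, by broccoli level, on a log scale, for L.bacterium335 (left) and Acetatifactor (right). Each point is 1 library with at least 100 reference counts, open triangles stand for a value of 0, and bars are medians. In L.bacterium335 the widest gap among the 0.5% and 1% libraries, located in these same values, lies between 361 and 724. The 9 libraries of 2.5% lie between 617 and 1570.

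The makeup of the member counts of L.bacterium335 varied between libraries, with a wider range for flagellin than for fliD or fliS. In the 28 libraries with at least 100 member counts, fliD took 24.4 to 50.7% of all member counts, a range of 2.08-fold. The chemotaxis proteins took 27.04 to 44.9%, and the 2 cheA copies 5.22 to 19.4%. The less counted roles also varied: motor and switch genes took 1.17 to 8.96%, basal body and export genes 0.633 to 3.87%, hook, junction and rod genes 0 to 8.92%, receptors 0 to 9.65% and fliW 0 to 3.80%. The chaperone gene fliS had 8.20 to 41.0 counts per 100 fliD counts, and 21.4 to 32.5 in the 9 libraries of 2.5%. Flagellin, in contrast, took 0.213 to 20.3% of member counts, a range of 95.2-fold. There were 0.455 to 74.4 hag counts per 100 fliD counts, and still 1.39 to 23.0 within the 9 libraries of 2.5%, where replicate 3 had the highest value. At 0.5% replicate 10 there were 2 hag counts beside 440 of fliD, and at 1% replicate 6 there were 32 beside 43. Some libraries with few fliD counts had high hag ratios. At 1%, replicates 2, 6 and 9 had 32.97, 74.4 and 47.5 hag counts per 100 fliD with 91, 43 and 61 fliD counts, whereas 0.5% replicate 1 had 2.27 with 44 fliD counts. These are ratios of counts with no gene length, so they compare libraries and not the 2 genes.

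**Figure D4:**
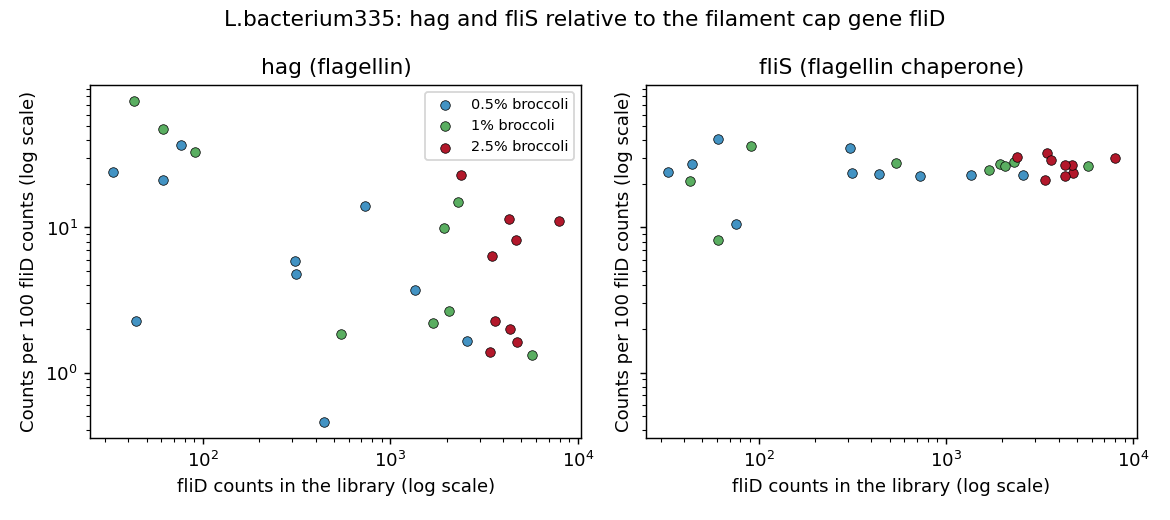
Counts of hag (left) and fliS (right) per 100 fliD counts in L.bacterium335 against the fliD counts of the library, both on log scales, for the 28 libraries with at least 100 member counts, coloured by broccoli level. The hag values run from 0.455 to 74.4, while those of fliS stay between 8.20 and 41.0.

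In Acetatifactor, 7 of 8 tested members were higher at 2.5% broccoli, with log2 fold changes of 1.66 to 3.13. The other, fliA_2, named for a sigma factor, was lower. The 25 members had 15 to 110 counts per library at 0%, 19 to 449 at 0.5%, 98 to 1046 at 1%, and 388 to 1613 at 2.5% apart from 18 in replicate 8. Without the 2 fliA copies, they made up 0 to 0.244% of the genome's counts at 0% and 0.522 to 0.825% at 2.5%, except 0.0105% in replicate 8. Only 8 of the 25 passed the filter on low counts. Of these 8, 1 rose at 0.5%, 5 rose at 1%, and at 2.5% 7 rose and 1 fell (edgeR). Over the 773 features tested, 25.1%, 67.8% and 77% were called in those comparisons, with 21.6%, 49.5% and 54.5% higher and 3.49%, 18.2% and 22.5% lower. The median log2 fold change of the 8 members was 1.19, 2.01 and 2.14, against 0.95, 1.58 and 1.81 over all tested features. Between the broccoli levels 0 of 8 were called in any of the 3 comparisons (background 0.259% at 1% against 0.5%, 9.18% at 2.5% against 0.5% and 0% at 2.5% against 1%). At an unadjusted p under 0.05 the counts were 0, 2 and 0, and by DESeq2 1 was called at 2.5% against 0.5%.

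**Figure D5:**
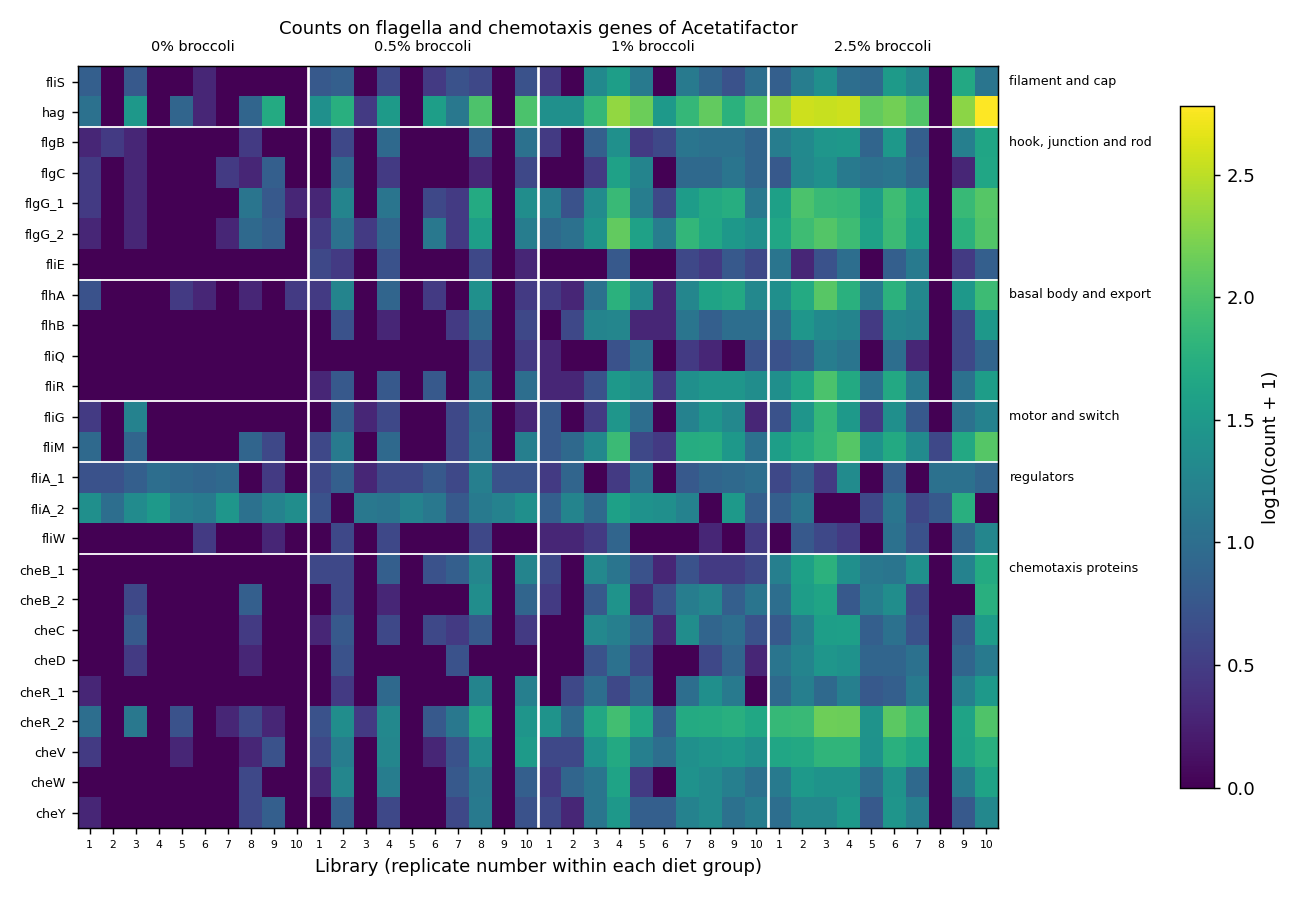
Counts of the 25 members in Acetatifactor (rows, by role) in each of the 40 libraries (columns, by broccoli level and replicate), as log10(count + 1). The row of fliA_2 is filled at 0% and thin at 2.5%, opposite to hag and the rod genes, and 2.5% replicate 8 is nearly empty.

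The flagellin gene hag had 10, 0, 29, 0, 7, 1, 0, 7, 49 and 0 counts at 0%. At 2.5% it had 220, 366, 348, 372, 128, 151, 104, 0, 194 and 599 counts, every library but replicate 8 above those of 0%. Scaled within the genome, however, 0% reached 2258 CPM, a count relative to the scaled library size, in its highest library and 2.5% at most 2367, so the groups overlapped. Its log2 fold change was 0.96 ± 0.70 at 0.5%, 1.28 ± 0.70 at 1% and 1.81 ± 0.71 at 2.5% (edgeR adjusted p = 0.296, 0.0933 and 0.0191). The medians over all 773 tested features were 0.95, 1.58 and 1.81, so hag did not stand above the genome. With reference genes as the scale, the hag difference at 2.5% was 1.23 and was not called (edgeR adjusted p = 0.0899). The chaperone gene fliS was below the filter, with 12, 27, 103 and 169 counts in the 4 groups.

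The distal rod genes flgG_1 and flgG_2 rose at 1% and 2.5%. Counts of flgG_2 were 1, 0, 1, 0, 0, 0, 1, 8, 6 and 0 at 0% and 43, 81, 108, 82, 38, 77, 36, 0, 58 and 105 at 2.5%, 2.46 ± 0.69 higher on the log2 scale (adjusted p = 0.00194 by edgeR). For flgG_1 it was 2.22 ± 0.74 at 2.5% (adjusted p = 0.00728), while its value at 1% was no longer called without 1% replicate 9 (adjusted p = 0.0505). The untested flgB, flgC and fliE had 6, 12 and 0 counts at 0% and 190, 133 and 52 at 2.5%. Of the export gate genes, flhA rose at 1% and at 2.5%, with log2 fold changes of 2.46 ± 0.75 and 2.58 ± 0.75 (adjusted p of 0.00544 and 0.00243 by edgeR). The other export genes flhB, fliQ and fliR had 0 counts in all libraries of 0% and 142, 55 and 324 at 2.5%, at least 7.68-fold, 2.98-fold and 17.5-fold higher. With the same floor, the median fold over all 773 tested features was 3.86 at 2.5%, above the bound of fliQ. The switch gene fliM rose only at 2.5%, by 1.66 ± 0.72 (edgeR adjusted p = 0.0324), below the median of 1.81 over all tested features. That call was lost without any 1 of 10 of the 20 libraries compared, 0% replicates 2, 4, 5, 6, 7 and 10 and 2.5% replicates 4, 7, 9 and 10 (adjusted p 0.0511 to 0.0790), and also without libraries 76 to 81 (0.0695) and with reference gene scaling (0.0716). The switch gene fliG was untested, and 16 of its 18 counts at 0% came from replicate 3.

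Of the 9 chemotaxis protein genes, cheV and cheR_2, the receptor methyltransferase, were tested. Counts of cheV were 2, 0, 0, 0, 1, 0, 0, 1, 4 and 0 at 0%, and 43, 46, 65, 64, 25, 57, 42, 0, 39 and 55 at 2.5%. It was the only member called at 0.5%, where 2 to 4 members were called with any 1 library left out (9 then tested), 4 with RLE size factors, 5 with reference gene counts as library size and 7 with no low-count filter. Its values were log2 fold changes of 2.63 ± 0.78, 2.87 ± 0.77 and 3.13 ± 0.77 at 0.5%, 1% and 2.5% (edgeR adjusted p = 0.0136, 0.00228 and 0.000554). The cheV call at 0.5% was lost without the 6 libraries whose names carry the numbers 76 to 81 (adjusted p = 0.0849), none of which is at 0%. For cheR_2 the log2 fold change was 2.11 ± 0.68 at 1% and 2.07 ± 0.67 at 2.5% (adjusted p of 0.00789 and 0.00610 by edgeR). The other 7, cheB_1, cheB_2, cheC, cheD, cheR_1, cheW and cheY, had 0 to 10 counts each over the 0% group and 116 to 247 at 2.5%. Of these, cheB_1 had 0 counts at 0% and was at least 13.4-fold higher at 2.5%. The median over all 773 tested features was 3.86-fold with the same floor. The Acetatifactor table held no member named cheA, fliD or mcp, and neither table held one beginning with mot.

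The gene fliA_2 moved the other way. It is named for the sigma factor that directs RNA polymerase to late flagellar genes such as flagellin. Its counts at 0% were 23, 9, 21, 31, 15, 13, 28, 10, 16 and 22, so it was found in each library of that group. At 2.5% the counts were 6, 11, 0, 0, 3, 11, 3, 5, 55 and 0 in libraries with more counts on the genome. The median was 815 CPM at 0%, 381 at 0.5%, 227 at 1% and 47.4 at 2.5%, and the highest library of 2.5%, replicate 9 at 671, overlapped with 0%. Its log2 fold change was -0.83 ± 0.73, -1.49 ± 0.73 and -2.95 ± 0.77 (edgeR adjusted p = 0.377, 0.0647 and 0.00101), so only the value at 2.5% was called. The value at 2.5% changed with the scaling. It was -1.40 with RLE size factors (adjusted p = 0.0719) and -0.31 when scaled to the total over the 6 tables (adjusted p = 0.810), and neither was called. It stayed called by DESeq2 at -2.90 (adjusted p = 0.000161) and with reference gene counts as library size at -3.56 (edgeR adjusted p = 0.000763), where the value at 1% was called too, at -2.16 (adjusted p = 0.0192). Without 2.5% replicate 9 the value at 2.5% was -4.09. Over all 773 features 22.5% were called lower at 2.5%. The other copy, fliA_1, was untested and had 48, 47, 49 and 65 counts in the 4 groups. The third regulator, fliW, had 3 counts at 0% and 49 at 2.5%. Acetatifactor also held sigD, the Bacillus counterpart of fliA, which lies outside the symbol rule and was untested. Its counts were 2, 10, 65 and 102 in the 4 groups, higher at 2.5% as for most members. The symbols alone do not show which of fliA_1, fliA_2 and sigD serves flagella.

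Relative to reference genes, Acetatifactor members (fliA copies left out) had a median of 40.1 counts per 1000 at 0%, with a range of 0 to 269 over 10 libraries. They had 53.4 to 399 at 0.5% (8 libraries), 162 to 301 at 1% and 255 to 351 at 2.5% apart from 18.6 in replicate 8. The 0% libraries thus overlapped with those of all broccoli levels, where replicates 3 and 9 had 269 and 240. The 10 libraries of 1% stayed within 162 to 301 here and within 78.6 to 1404 in L.bacterium335, a difference in spread that was not tested.

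In F. rodentium the only member was fliY, a symbol used both for a switch protein and for a cystine-binding transport protein, so its place among flagella genes is uncertain. It had 0 to 48 counts per library at 0% (median 18), 4 to 173 at 0.5% (median 25), 0 to 21 at 1% (median 3) and 0 to 7 at 2.5% (median 2.5). The genome's own counts also fell, from a median of 511338 at 0% to 75069 at 2.5%, and 2 libraries of 2.5% with under 10000 were left out of the fit. Scaled within the genome, the median of fliY was 31.6, 43.4, 8.60 and 21.7 CPM. It was not called against 0% at any level (log2 fold change 0.60 ± 0.37, -1.35 ± 0.44 and -0.27 ± 0.49, edgeR adjusted p = 0.368, 0.285 and 0.797), where 8.47%, 0.474% and 9.41% of 1689 features were. At 1% against 0.5% its log2 fold change was -1.94 ± 0.44 (adjusted p of 0.0315 by edgeR), where 0.296% of features were called and 0.237% were called lower. It was not called at 2.5% against 0.5% or against 1%, where 3.37% and 0.77% of features were. That call was lost by DESeq2, without the libraries numbered 76 to 81, and without any 1 of 4 libraries (0.5% replicate 6 and 1% replicates 3, 9 and 10).

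A list of other genes was also followed outside the symbol rule. Some are of the pathway, while others, such as swrC, pilT and hpf, are not parts of flagella or chemotaxis. In L.bacterium335 the table held 9 features of this list, and the 5 tested, csrA, pomA, sigD, swrC and ylxH, all rose at each level. Most of the genome did too, with 79.4%, 78.4% and 77.8% of all tested features called higher. The median log2 fold change of the 5 was 8.99, 8.83 and 8.97, against 7.60, 7.68 and 7.94 over all tested features. The sigma factor gene sigD, the Bacillus counterpart of fliA, had 0 counts at 0% and 196, 425 and 1719 at 0.5%, 1% and 2.5%. The motor stator gene pomA had 0, 156, 337 and 1744 counts. The untested degU, pilT, remA and sinR had 0 counts at 0% and 34, 460, 82 and 0 at 2.5%. In Acetatifactor 3 of 10 features of the list were tested, where 21.6%, 49.5% and 54.5% of all 773 tested features were called higher at 0.5%, 1% and 2.5%. The median log2 fold change over the 773 was 0.95, 1.58 and 1.81. The flagellin gene flaB, a relative of hag, rose at 1% (log2 fold change 1.58 ± 0.71) and at 2.5% (1.66 ± 0.71), with an adjusted p of 0.0460 and 0.0317 by edgeR. The gene ylxH rose by 2.41 ± 0.73 and 2.54 ± 0.73, and hpf, which encodes a ribosome hibernation factor and is on the list, rose at all 3 levels. In D. muris, X. muris and F. rodentium, 2, 1 and 1 features of this list were tested and 0 were called against 0% by edgeR, with 1 of them, hpf of F. rodentium at 2.5%, at an unadjusted p under 0.05. At 0.5%, 1% and 2.5%, 4.96%, 6.23% and 10.6% of all D. muris features and 0%, 6.57% and 11% of those of X. muris were called.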

How the data were processed

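Total RNA of cecal contents was depleted of ribosomal RNA and made into libraries with the KAPA RNA HyperPrep kit, per the labels' protocols. The authors deposited raw read counts per feature, 1 table for each of 6 bacterial genomes. The aligner, counter and strand setting were not given in the sources used here. All 40 columns of each table were matched to samples by library name, and groups came from the treatment label. Within the groups, 0 of 180 library pairs were identical, and the smallest chi-square per degree of freedom between 2 libraries was 10.6.

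Each genome table was fitted whole with edgeR 4.0.16 (R 4.3.3), leaving out stable RNAs and libraries with under 10000 counts on the genome. Low counts were filtered by filterByExpr with the groups, libraries were scaled by TMM within the genome, and all 4 groups shared 1 estimate of spread. The quasi-likelihood test was run for 6 pairwise comparisons, with Benjamini-Hochberg adjustment over all tested features and a threshold of 0.05. Scaling within a genome is meant to remove changes in that bacterium's share of the community. Against 0% it did not centre the features on no change. The median log2 fold change over all tested features stayed at 7.60, 7.68 and 7.94 in L.bacterium335. In Acetatifactor it was 0.95, 1.58 and 1.81, so folds against 0% are not free of such changes. Alternatives were DESeq2 1.42.0, RLE size factors, the total over the 6 tables as library size, no low-count filter, other library minimums (none or 50000), the 5 features with most counts at 0% left out, the libraries numbered 76 to 81 left out, each library left out, and, added after seeing the data, reference gene counts as library size. The test was tried on simulated counts.

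Where 0% had 0 counts, a lower bound used 3 counts over the group; with 1 to 3 counts a ratio has a 95% exact interval. Both cover counting error only, and reads are not independent molecules. Named genes were all members of a genome with at most 12, and otherwise, per role, the 3 of highest mean CPM, those called lower at any level and those not called at 2.5% against 0%. The members and lists were chosen with earlier results of these data known.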

Additional observations from a re-analysis of the deposited data

Results flagged for a closer look

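A library was singled out where its gap to the nearest other library of its group, over the group's range, passed Dixon's 95% critical value. Of 108 groups of values examined 17 were singled out, where chance gives about 5%, and several rest on the same library.

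In L.bacterium335, 2.5% replicate 9 accounted for 7 of the 17. Its members took 0.00393% of the genome's counts against 2.05 to 3.00% in the other 9 libraries, fliD had 37.6 CPM against 3635 to 7551, and cheV, fliM, fliR, mcp4 and mcpB were at 0. The 0% library replicate 8 was high in member share (0.0373%, others up to 0.00505%) and in fliD (82.4 CPM, others up to 31.5), which rests on 7 and 3 counts. For hag, 2.5% replicate 3 stood at 1735 CPM, the others at 12.5 to 716.

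In Acetatifactor, 2.5% replicate 8 was low in member share (0.0630%, others 0.575 to 0.839%), in members per 1000 reference counts (18.6, others 255 to 351) and in flgG_2 (0 CPM, others 356 to 708). At 0%, replicate 9 was high in cheV (184 CPM) and replicate 8 in flgG_1 (541), on 4 and 11 counts. The 1% library replicate 4 was high in flgG_2 (910 CPM, others 300.3 to 523), and 2.5% replicate 9 in fliA_2 (671, others up to 149.8).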

How the results depend on the processing

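In L.bacterium335 the members called against 0% did not move by over 1.5 times under any alternative run, nor with any library left out (29 to 29 at each level, and 0 to 0 between the broccoli levels). RLE size factors and the total over the 6 tables each called 29 at 2.5% against 0.5%, with the median over all tested features at 2.64 and 3.09 on the log2 scale in place of 0.14. In Acetatifactor at 0.5% against 0% the count was 7 with no low-count filter, 5 with reference gene counts and 4 with RLE, and 2 to 4 with a library left out, where the filter passed 9 members in place of 8. At 1% it was 16 with no filter and 9 with reference gene counts (4 to 8 with a library left out), and at 2.5% it was 18 with no filter (7 to 9). At 2.5% against 0.5% it was 1 by DESeq2, 5 with RLE and 7 with the total over the 6 tables (0 to 1 with a library left out), at 2.5% against 1% 0 to 1, and at 1% against 0.5% 0 to 0. For fliY in F. rodentium the count at 1% against 0.5% was 0 by DESeq2 and 0 without libraries 76 to 81 (0 to 1 with a library left out), and with the total over the 6 tables it was 1 at 2.5% against 0% and 1 at 2.5% against 0.5%. The cause was not tested. No value changed sign while called. A minimum of 50000 counts left no 0% library in Acetatifactor, and reference gene scaling gave no value against 0% in L.bacterium335. No paired analysis was possible because the labels carry no replicate numbers. In L.bacterium335 most folds against 0% are bounds. The genome had a median of 83651 counts at 0% and 77244 at 0.5%, but these totals were spread differently. A median of 76.8% of a library's counts on the genome fell on 5 features at 0%, and 48.2% at 0.5%. The reference genes had a median of 35.5 counts at 0% and 970.5 at 0.5%. Similar totals therefore do not mean similar depth for the other genes. In Acetatifactor 17 members were below the filter and not tested.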
